A study of Homo sapiens with 12 samples.

Results

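The unfolded protein response of PANC-1 cells was followed through 10 genes of the endoplasmic reticulum (ER), namely HSPA5, HSP90B1, DNAJB9, HERPUD1, XBP1, ERN1, SDF2L1, PDIA4, CALR and EDEM1, and set beside DDIT3 and TRIB3, 2 genes of the ATF4 branch of the same response. The genes were chosen by name, with earlier results of these data known. Each was measured by 1 feature, so that 10 of the 34487 features of the table belong to the ER genes and 2 to the ATF4 branch. PANC-1 is a long-established human cell line from a pancreatic ductal adenocarcinoma. It was cultured alone under normoxia (NPC) or hypoxia (HPC), or for 4 days below a porous transwell membrane that held tumor-associated macrophages (TAMs), again under normoxia (NPM) or hypoxia (HPM). The TAMs were THP-1 monocytes turned into macrophages with PMA and polarized with IL-4 and IL-13, so they stand for a cell line model of TAMs and not for macrophages of a tumor. Each of the 4 groups had 3 single-colour (Cy3) arrays of total RNA from the PANC-1 cells, and the submitters describe them as separate experiments. No source used here states the oxygen level.

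Proteins that are secreted or sit in membranes fold in the ER with the help of chaperones. When unfolded protein accumulates there, IRE1 (encoded by ERN1), ATF6 and PERK signal to the nucleus. IRE1 splices the mRNA of XBP1 into the form that encodes an active transcription factor, ATF6 is cut in the Golgi to release another, and PERK phosphorylates eIF2alpha, which slows translation in general while ATF4 is made. XBP1 and ATF6 drive chaperones and genes of ER-associated degradation (ERAD). ATF4 drives DDIT3 (CHOP) and TRIB3, and it is also made when amino acids run short, because several kinases converge on eIF2alpha.

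Promoter elements known for this response were looked for in the 250 bases before each RefSeq transcription start (build GRCh38.p14). Both strands were searched for 4 motifs. The ER stress response element (ERSE) was searched as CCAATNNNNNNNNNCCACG, ERSE-II as ATTGG and CCACG with any single base between them, the core of the unfolded protein response element (UPRE) as TGACGTG and the CHOP-ATF4 response element (CARE) as TGATGNAAN. ERSE and ERSE-II are made of the same CCAAT and CCACG blocks at different spacing, and in these windows no match of either overlapped one of the other. An ERSE lay in 4 of the 10 ER genes and in 25 of 27305 genes in all (0.0916%). An ERSE-II lay in 2 of the 10, HERPUD1 and SDF2L1, and in 18 of 27305 (0.0659%). Since these elements were already known for this response, the counts are a description and were not tested. The matches are printed here with 10 bases on each side because they separate the ER genes that carry the classical chaperone element from the others. Letters run 5′ to 3′ on the strand of the gene, capitals mark the match, and a match that begins with CGTGG runs on the other strand.
HSPA5, chr9:125241381-125241419, minus strand: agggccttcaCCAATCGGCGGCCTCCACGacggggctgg
HSP90B1, upstream match, chr12:103930206-103930244, plus strand: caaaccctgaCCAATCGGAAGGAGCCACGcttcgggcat
HSP90B1, downstream match, chr12:103930311-103930349, plus strand: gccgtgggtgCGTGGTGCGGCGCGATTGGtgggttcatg
XBP1, chr22:28800593-28800631, minus strand: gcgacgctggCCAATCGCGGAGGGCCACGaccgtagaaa
CALR, chr19:12938374-12938412, plus strand: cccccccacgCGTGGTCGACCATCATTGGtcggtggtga
HERPUD1, ERSE-II, chr16:56932015-56932045, plus strand: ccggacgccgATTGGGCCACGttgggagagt
SDF2L1, ERSE-II, chr22:21642104-21642134, plus strand: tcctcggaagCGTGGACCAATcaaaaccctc

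The ERSE of HSPA5 spanned positions 66 to 48 before the start and that of XBP1 positions 52 to 34. The UPRE core lay in 0 of the 10 windows, against 2.05% of all genes. CARE lay in 1, that of HERPUD1, 177 to 169 bases before the start, against 3.87% of all genes. In the windows of DNAJB9, ERN1, PDIA4, EDEM1, DDIT3 and TRIB3 none of the 4 letter patterns was found. A match is a stretch of letters and not a measured binding site, and the search did not reach beyond these windows.

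**Figure D1:**
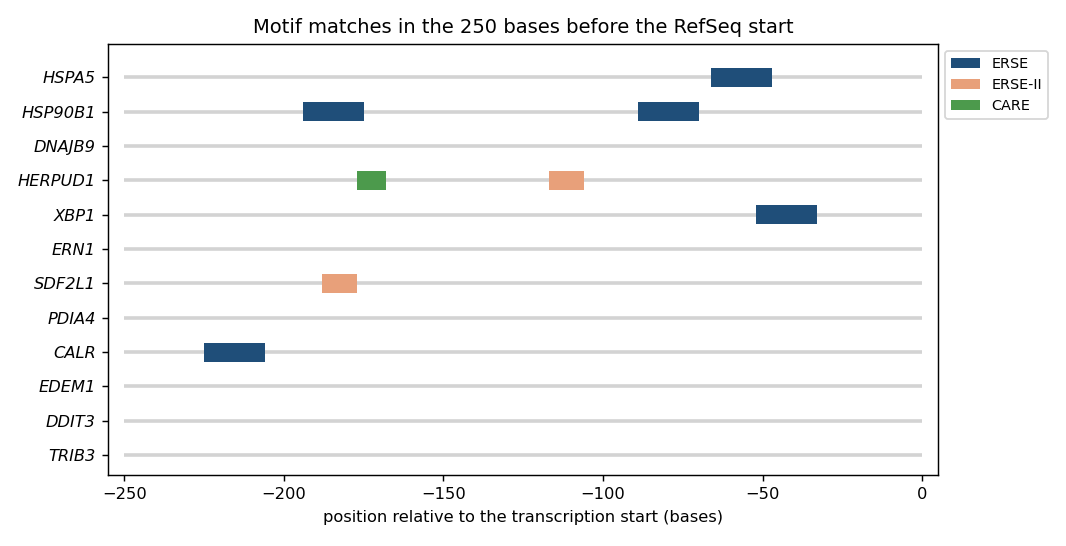
Motif matches in the 250 bases before the transcription start of the 10 ER genes, DDIT3 and TRIB3, with position in bases relative to the start on the horizontal axis and 1 grey line for each gene. ERSE (dark blue) lies in HSPA5, HSP90B1, XBP1 and CALR, ERSE-II (orange) in HERPUD1 and SDF2L1, and CARE (green) in HERPUD1.

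The arrays resembled each other closely, and pairs of a group correlated across features at 0.942 to 0.973, pairs of different groups at 0.909 to 0.972. Of 10 hypoxia-induced genes 9 were measured, and their mean log2 intensity was 10.735 to 10.98 on the 6 normoxia arrays and 12.1 to 12.4 on the 6 hypoxia arrays, without overlap. In HPC vs NPC all 9 were higher at an unadjusted p under 0.05 (17.8% of all features). After adjustment 0 of them passed limma there (0.157% of all features). In HPM vs NPM 9 passed (10.4% of all features). Macrophage markers were low as a list (11 of 15 measured, mean log2 intensity 7.03 to 7.64 over all arrays, NPC 7.51 to 7.64, NPM 7.31 to 7.47, HPC 7.03 to 7.48, HPM 7.24 to 7.34). On each array 1.78% to 24.8% of features were dimmer than CD14 and 2.99% to 17.4% dimmer than ITGAM, whereas 82.9% to 91.2% were dimmer than CD68, which tumor cells also express. Between these lay markers such as CD163 (13.5% to 40.3%) and ADGRE1 (14.5% to 56.5%). CSF1R, MRC1, PTPRC and MSR1 were not measured. The mean of the list lay lower in NPM than in NPC, where LCP1 fell by 3.24 on the log2 scale (limma adjusted p = 0.00677) while 7 of the 11 had a higher group mean and the median was 0.30, and the HPM means fell within the range of HPC. In HPM vs HPC 4 of the 11 had a higher group mean and 7 a lower one, with a median of -0.24. CD68 and ADGRE1 were higher on every array with TAMs than on every array without them at both oxygen levels, with log2 fold changes of 0.31 and 1.34 in NPM vs NPC (limma adjusted p = 0.430 and 0.245) and of 0.80 and 1.14 in HPM vs HPC (limma adjusted p = 0.0515 and 0.0638). Of all features, 21.4% in NPM vs NPC and 27.7% in HPM vs HPC had groups that did not overlap, in either direction. The part of CD68 and ADGRE1 in the co-culture results was not tested. The 8 epithelial markers had mean log2 intensities of 10.52 to 11.61. All 8 had a lower group mean in NPM than in NPC (median log2 fold change -0.35) and 6 of 8 in HPM than in HPC (median -0.29). None passed in either comparison, against 0.0232% and 1.02% of all features, and by the methods' t-test after adjustment 0 did in both. At an unadjusted p under 0.05 there were 0 and 2, against 13.7% and 20.5% of all features. The part of these lower means in the co-culture results was not tested either. Intensities of different features cannot be ranked as amounts of transcript. Different genes were therefore set beside each other only through changes between groups, within-array ratios and correlations. In bulk RNA a lower intensity cannot tell fewer cells with the transcript from less transcript in each cell.

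HSPA5 encodes BiP, the abundant Hsp70 chaperone of the ER lumen that also keeps the 3 stress sensors inactive. Its log2 intensity was 10.14, 10.18 and 10.13 on the NPC arrays and 10.53, 10.41 and 10.52 on the NPM arrays. It was 10.91, 10.70 and 10.56 on the HPC arrays and 11.72, 11.90 and 11.56 on the HPM arrays. The 4 groups did not overlap and stood in the order NPC, NPM, HPC and HPM, with the HPM arrays apart from all others. For NPM and HPC, the neighbours in the middle of that order, the lowest HPC array was only just above the highest NPM array.

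HERPUD1, an ER membrane protein that helps assemble the ERAD machinery, had log2 intensities of 10.25, 10.35 and 10.60 in NPC and 10.98, 10.98 and 10.96 in NPM. They were 11.68, 11.87 and 11.70 in HPC and 12.06, 12.54 and 12.36 in HPM. Its 4 groups again did not overlap and kept the order seen for HSPA5, and here every HPC array also stood well above every NPM array.

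HSP90B1, the ER paralog of HSP90 known as GRP94, had log2 intensities of 14.25, 14.40 and 14.17 in NPC, 14.49, 14.43 and 14.36 in NPM, 14.38, 14.44 and 14.50 in HPC and 14.93, 14.85 and 14.90 in HPM. The HPM arrays lay above all others, and the other 3 groups overlapped. PDIA4 (ERp72, a protein disulfide isomerase) showed the same arrangement, with 12.74, 12.62 and 12.62 in NPC, 12.79, 12.74 and 12.56 in NPM, 12.84, 12.82 and 12.55 in HPC and 13.20, 13.44 and 12.93 in HPM. CALR, the calcium-binding lectin chaperone calreticulin, was at 14.76, 14.89 and 14.76 in HPM. Its values elsewhere ran from 14.26 to 14.94, both on NPC arrays, so that only HPC lay wholly below HPM.

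DNAJB9 (ERdj4), a J-domain partner of BiP and a classical XBP1 target, was dim and varied most between replicates. Its log2 intensities were 7.10, 7.51 and 6.30 in NPC, 7.11, 6.93 and 5.56 in NPM, 7.47, 7.64 and 6.50 in HPC and 8.72, 8.14 and 7.52 in HPM. The array numbered 3 was the lowest of its group in all 4 groups. Between 1.33% and 41.9% of features were dimmer than DNAJB9 on the same array.

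The sensor ERN1 had log2 intensities of 8.38, 8.42 and 7.76 in NPC, 8.60, 8.51 and 8.55 in NPM, 8.93, 8.70 and 8.67 in HPC and 9.05, 8.95 and 9.00 in HPM, with no overlap between the 4 groups and the order of HSPA5. Its substrate XBP1 had another arrangement. XBP1 was at 10.57, 10.87 and 10.90 in NPC, 10.94, 11.12 and 11.06 in NPM, 11.38, 11.39 and 11.02 in HPC and 10.99, 10.82 and 10.78 in HPM. The feature measures XBP1 mRNA as a whole, and spliced and unspliced forms were not told apart here.

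SDF2L1, which binds BiP and its J-domain partners in the ER lumen, had its highest mean in NPC, at 9.65, 9.74 and 9.79. It was 9.27, 9.35 and 9.16 in NPM, 9.30, 8.76 and 9.29 in HPC and 9.70, 9.20 and 9.35 in HPM. The NPC arrays stood above those of NPM and HPC, and HPM replicate 1 reached the range of NPC. EDEM1, which directs misfolded glycoproteins to degradation, ranged from 11.47 to 12.12, with both extremes in HPC.

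**Figure D2:**
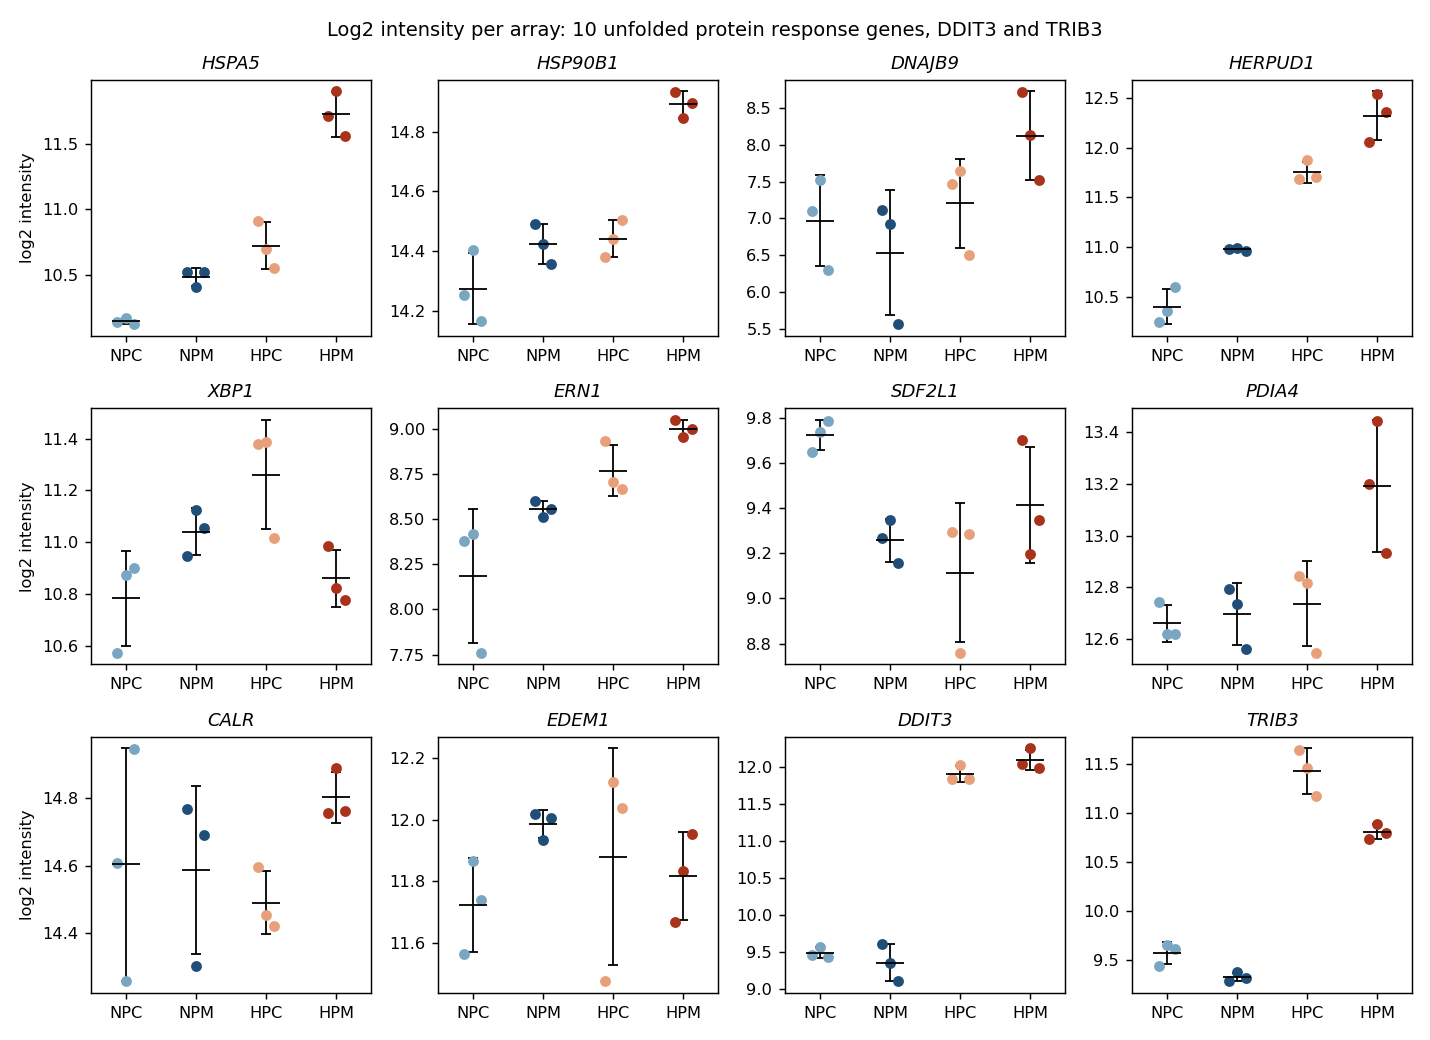
Log2 intensity (vertical axes, a separate scale for each gene) of the 10 ER genes, DDIT3 and TRIB3 on each array in the NPC, NPM, HPC and HPM groups, with points for arrays and bars for the mean and SD (n = 3). HSPA5, HERPUD1 and ERN1 climb from NPC to HPM without overlap, while DDIT3 and TRIB3 separate by oxygen.

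The effect of hypoxia was first asked of PANC-1 cells grown alone (HPC vs NPC). None of the 10 ER genes passed limma at a Benjamini-Hochberg adjusted p of 0.05 over all features, while both genes of the ATF4 branch did (by the methods' t-test after adjustment DDIT3 passed and TRIB3 did not, at 0.0651). Of all features 0.157% passed, and the small number that passed is the background for the count of 0. Of the 9 measured hypoxia-induced genes 0 passed there too, by limma and by the methods' t-test after adjustment. A count of 0 in this comparison therefore does not show a lack of response. At an unadjusted p under 0.05 there were 5 ER genes (HERPUD1, HSPA5, XBP1 and ERN1 higher, SDF2L1 lower), against 17.8% of all features, and the methods' t-test after adjustment gave 0. The groups did not overlap for the same 5, against 25.7% of all features. The median log2 fold change of the 10 was 0.20, beside -0.00052 for all features.

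HERPUD1 differed most among the 10, with a log2 fold change of 1.35 ± 0.17 (SE, n = 3 and 3, 2.55-fold) and a limma adjusted p of 0.0506, and its 3 HPC arrays were all above the NPC arrays. HSPA5 came to 0.57 ± 0.16 (limma adjusted p = 0.150), XBP1 to 0.48 ± 0.18 (limma adjusted p = 0.248) and ERN1 to 0.58 ± 0.22 (limma adjusted p = 0.244), each without overlap of the groups. SDF2L1 lay the other way, at -0.61 ± 0.20 (limma adjusted p = 0.188), also without overlap. The remaining 5, HSP90B1, DNAJB9, PDIA4, CALR and EDEM1, had log2 fold changes between -0.11 and 0.23 and overlapping groups.

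DDIT3, the transcription factor CHOP that promotes cell death under lasting stress, had log2 intensities of 9.46, 9.57 and 9.43 in NPC and 11.84, 12.04 and 11.84 in HPC. It rose by 2.42 ± 0.15 on the log2 scale (5.35-fold, limma adjusted p = 0.0254). TRIB3, a pseudokinase that ATF4 and CHOP induce, was at 9.44, 9.65 and 9.61 in NPC and at 11.63, 11.46 and 11.17 in HPC. It rose by 1.86 ± 0.18 (3.62-fold, limma adjusted p = 0.0337). The lower limits of their 95% confidence intervals, 2.06 for DDIT3 and 1.43 for TRIB3, lay above the upper limit for HSPA5 (0.95), and that of DDIT3 also above the upper limit for HERPUD1 (1.74). The calls of both are fragile, since no feature of the table passed in this comparison when any 1 of the 6 arrays was left out.

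The same question was then asked of co-cultured cells (HPM vs NPM), with arrays that the first comparison did not use. Here HSPA5 and HERPUD1 rose, which is 2 of the 10 ER genes, against 10.4% of all features that passed in either direction. HSPA5 rose by 1.24 ± 0.15 (2.36-fold, limma adjusted p = 0.0104) and HERPUD1 by 1.34 ± 0.17 (2.54-fold, limma adjusted p = 0.0109). The median of the 10 was 0.46, beside -0.0019 for all features. Without NPM replicate 2 neither passed (limma adjusted p = 0.0547 for HSPA5 and 0.0555 for HERPUD1).

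Another 4 ER genes were higher in every HPM array than in every NPM array without passing after adjustment, which makes 6 of 10 whose groups did not overlap, against 34.5% of all features. The same 6 were at an unadjusted p under 0.05, against 27.9%. DNAJB9 had a log2 fold change of 1.59 with a wide error (SE 0.48, limma adjusted p = 0.0870). HSP90B1 had 0.47 ± 0.14 (limma adjusted p = 0.0769), ERN1 0.45 ± 0.13 (limma adjusted p = 0.0835) and PDIA4 0.50 ± 0.18 (limma adjusted p = 0.135). The 4 that remain, XBP1 (-0.18), SDF2L1 (0.16), CALR (0.22) and EDEM1 (-0.17), had confidence intervals that held 0.

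In the same comparison DDIT3 was at 9.61, 9.35 and 9.10 in NPM and 12.04, 12.26 and 11.997 in HPM, a rise of 2.75 ± 0.18 (6.71-fold, limma adjusted p = 0.00536). TRIB3 was at 9.29, 9.37 and 9.31 in NPM and 10.74, 10.89 and 10.79 in HPM, a rise of 1.48 ± 0.14 (2.79-fold, limma adjusted p = 0.00742). Both passed whichever of the 6 arrays was left out. Hypoxia thus went with higher DDIT3 and TRIB3 in single culture and in co-culture, whereas HSPA5 passed in co-culture alone. That HSPA5 passed in one setting and not in the other does not show that its hypoxia effects differ. The difference itself, the interaction below, did not pass after adjustment.

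**Figure D3:**
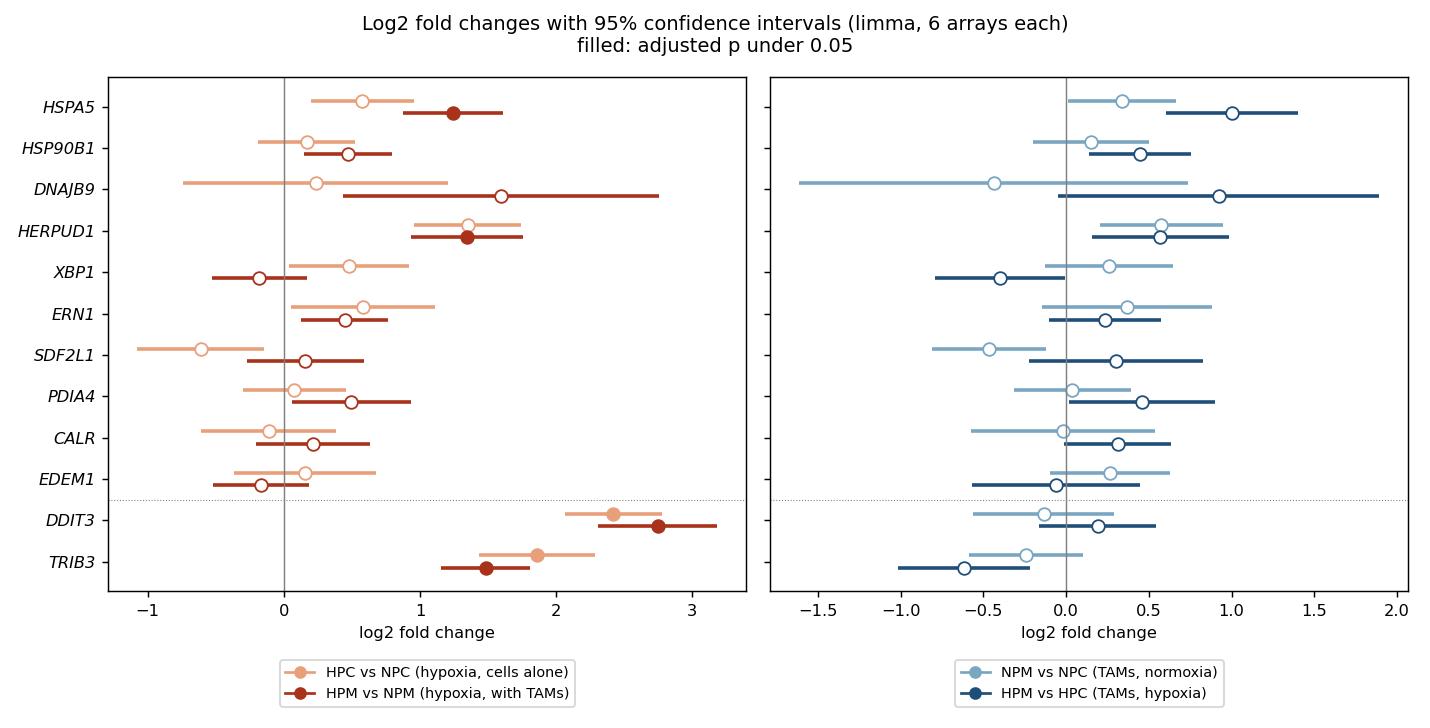
Log2 fold changes (horizontal axes) of the 10 ER genes, DDIT3 and TRIB3 under hypoxia (left) and under co-culture with TAMs (right), with 95% confidence intervals from limma over 6 arrays, and filled points for an adjusted p under 0.05. On the left DDIT3 and TRIB3 are filled in both comparisons and HSPA5 and HERPUD1 in HPM vs NPM, and on the right none is filled.

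Co-culture with TAMs under normoxia (NPM vs NPC) left none of the 10 ER genes past the limma threshold, where 0.0232% of all features passed. At an unadjusted p under 0.05 there were 3 (HSPA5 and HERPUD1 higher, SDF2L1 lower), against 13.7% of all features, and the methods' t-test after adjustment gave 0. The arrays of HERPUD1 gave 0.58 ± 0.16 (limma adjusted p = 0.199), those of HSPA5 0.34 ± 0.14 (limma adjusted p = 0.353) and those of SDF2L1 -0.47 ± 0.14 (limma adjusted p = 0.240). The groups did not overlap for these 3 or for XBP1 (0.26 ± 0.16), ERN1 (0.37) and EDEM1 (0.26), 6 of 10 against 21.4% of all features. The median of the 10 was 0.20, beside -0.0087 for all features. DDIT3 (-0.14 ± 0.18) and TRIB3 (-0.24 ± 0.14) did not pass either, with limma adjusted p of 0.790 and 0.522.

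Under hypoxia (HPM vs HPC), again none of the 10 passed by limma, where 1.02% of all features did, while 5 were at an unadjusted p under 0.05 (HSPA5, HSP90B1, HERPUD1 and PDIA4 higher, XBP1 lower), against 20.5% of all features, and the methods' t-test after adjustment gave 0. The groups of 7 did not overlap, against 27.7% of all features. HSPA5 was closest, with a log2 fold change of 1.00 ± 0.17 (95% confidence interval 0.60 to 1.40, limma adjusted p = 0.0530) and every HPM array above every HPC array. HSP90B1 gave 0.45 ± 0.13 (limma adjusted p = 0.125), PDIA4 0.46 ± 0.18 (limma adjusted p = 0.231), HERPUD1 0.57 ± 0.17 (limma adjusted p = 0.140) and CALR 0.31 (limma adjusted p = 0.259), all without overlap. XBP1 lay lower, at -0.40 ± 0.16 (limma adjusted p = 0.238), without overlap. The median of the 10 was 0.38, beside -0.015 for all features. With the replicate number as a block over these 6 arrays no feature of the table passed (HSPA5 adjusted p = 0.0627). An alternative added after seeing the data was limma over all 12 arrays with that block within an oxygen level. It called HSPA5 (adjusted p = 0.0150), DNAJB9 (0.0422) and HERPUD1 (0.0493), with 2892 of all features called.

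The ATF4 branch lay differently there. DDIT3 had a log2 fold change of 0.19 ± 0.15 (limma adjusted p = 0.524) with overlapping groups. TRIB3 was lower in every HPM array than in every HPC array, at -0.62 ± 0.17 (limma adjusted p = 0.112). Within each array the log2 ratio of DDIT3 to HSPA5 was 1.19 ± 0.22 (SD, n = 3) in HPC and 0.37 ± 0.056 in HPM, and that of TRIB3 to HSPA5 was 0.70 ± 0.076 in HPC and -0.92 ± 0.13 in HPM. These ratios show unequal change between groups and not which of the genes moved, and their sign within a group does not rank the genes. In all 4 comparisons and for both ratios the groups did not overlap, which gave p = 0.1 in each of 8 exact two-sided permutation tests (Benjamini-Hochberg adjusted p = 0.1), the smallest that 3 arrays against 3 allow.

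Whether co-culture acted differently at the 2 oxygen levels was tested as an interaction over the 12 arrays, the co-culture effect under hypoxia minus that under normoxia. None of the 10 ER genes passed, against 0.452% of all features, and 3 were at an unadjusted p under 0.05, against 11.4% of all features. HSPA5 had a larger effect under hypoxia by 0.67 ± 0.20 (limma adjusted p = 0.208). For SDF2L1 the difference was 0.77 ± 0.26 (limma adjusted p = 0.263), between an effect of -0.47 under normoxia and 0.30 under hypoxia. For XBP1 the difference was -0.66 ± 0.22 (limma adjusted p = 0.253). HERPUD1 had an interaction of -0.0076 ± 0.22, with a 95% confidence interval from -0.49 to 0.48. For DDIT3 (0.33 ± 0.22) and TRIB3 (-0.37 ± 0.20) the limma adjusted p were 0.645 and 0.533.

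**Figure D4:**
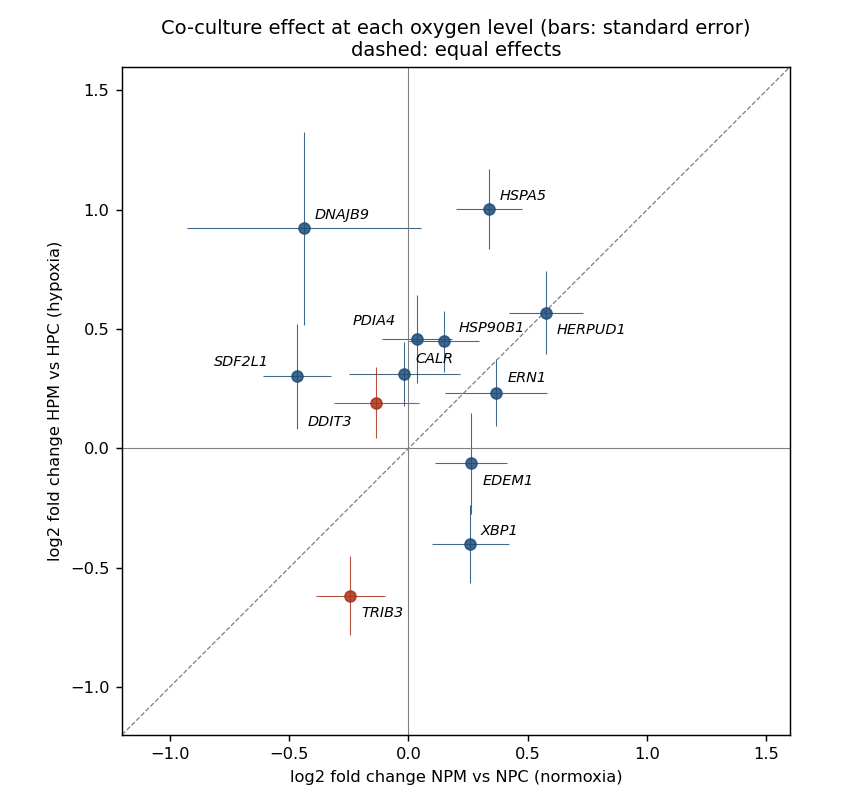
Log2 fold change with TAMs under hypoxia (HPM vs HPC, vertical axis) against that under normoxia (NPM vs NPC, horizontal axis) for the 10 ER genes (blue), DDIT3 and TRIB3 (red), with bars of 1 standard error and a dashed line of equal effects. HERPUD1 lies on the line, HSPA5 above it and XBP1 below it.

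Across the 12 arrays, which share 4 conditions, Pearson's r with HSPA5 was 0.93 for HSP90B1, 0.91 for HERPUD1, 0.88 for PDIA4, 0.82 for ERN1, 0.67 for DNAJB9 and 0.44 for CALR. It was near 0 for XBP1 (-0.0040) and EDEM1 (-0.070) and -0.21 for SDF2L1. DDIT3 had 0.78 and TRIB3 0.57. The members thus ranged from close likeness to HSPA5 to none, and DDIT3 was more like it than DNAJB9, CALR or SDF2L1. Among all features with a gene name, the 8 with the highest r to HSPA5 were N4BP3 (0.987), CNPY3 (0.976), R3HDM2 (0.975), TBL2 (0.973), CNNM2 (0.962), KLHL28 (0.962), RAB3IL1 (0.961) and SLCO4A1 (0.960). N4BP3 had mean log2 intensities of 9.04 in NPC, 9.45 in NPM, 9.73 in HPC and 11.20 in HPM.

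Other ER chaperones and folding enzymes were described from a list of 18 genes, 17 of them measured. None passed in HPC vs NPC, against 0.157% of all features, and their median log2 fold change there was 0.098. At an unadjusted p under 0.05 there were 3, against 17.8% of all features, and 0 by the methods' t-test after adjustment. In HPM vs NPM 4 of the 17 rose, 0 fell and 13 did not pass, with a median of 0.29. Of all features 10.4% passed there in either direction. CRELD2, an ER-resident protein induced by ER stress, rose by 1.33 ± 0.16 (limma adjusted p = 0.00962). MANF, a secreted factor that binds BiP, rose by 0.78 ± 0.14 (limma adjusted p = 0.0221). P4HB, a protein disulfide isomerase and subunit of prolyl hydroxylase, rose by 0.71 ± 0.16 (limma adjusted p = 0.0420), and SIL1, the nucleotide exchange factor of BiP, rose by 0.81 ± 0.19 (limma adjusted p = 0.0453). The calls of MANF, P4HB and SIL1 were lost whichever array was left out, and that of CRELD2 failed without NPM replicate 2 (limma adjusted p = 0.0506).

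CRELD2 also passed with TAMs under hypoxia. Its log2 intensities were 10.73, 11.15 and 11.01 in NPC, 11.24, 10.94 and 11.09 in NPM, 10.86, 10.88 and 10.96 in HPC and 12.31, 12.58 and 12.37 in HPM, so that the HPM arrays stood alone. It rose by 1.52 ± 0.14 in HPM vs HPC (limma adjusted p = 0.0362, and 0.0627 with arrays of the same number as a block). The other 16 did not pass there, and of all features 1.02% did. At an unadjusted p under 0.05, 7 of the 17 were higher and 1 lower, against 20.5% of all features in either direction. By the methods' t-test after adjustment 2 of the 17 passed, beside 231 of all 34487 features. None of the 17 passed in NPM vs NPC, against 0.0232% of all features, and CRELD2 had 0.13 ± 0.18 there. At an unadjusted p under 0.05 there were 0, against 13.7% of all features, and 0 by the methods' t-test after adjustment. The interaction of CRELD2 was 1.39 ± 0.21 (limma adjusted p = 0.0290, and 0.0714 with the block). In HPM vs HPC no feature of the table passed with the block or when any 1 array was left out. The call of CRELD2 was thus lost in each of those fits together with all others.

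Of 15 other ERAD genes 13 were measured and none passed in any comparison by limma, or by the methods' t-test in the 4 comparisons of groups. In HPM vs NPM 1 lay higher and 3 lay lower at an unadjusted p under 0.05, 4 of 13 against 27.9% of all features, with a median of -0.0089. OS9, a lectin that recognizes misfolded glycoproteins, had 0.58 ± 0.16 (limma adjusted p = 0.0649), and VCP, the ATPase that pulls them from the membrane, had -1.13 ± 0.32 (limma adjusted p = 0.0714). HERPUD1 passed in that comparison and the 13 other listed genes of ERAD did not, where 10.4% of all features passed. Of 18 genes of the translocon and of ER import or export, SEC63, a J-domain protein of the translocon, rose in HPM vs NPM (0.89 ± 0.16, limma adjusted p = 0.0240). The other 17 did not pass, and the median of the list was 0.10, so that 1 of 18 passed beside 10.4% of all features. The call of SEC63 held in 1 of the 6 fits that left out an array.

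Among 8 other sensors and processing proteases 1 passed in HPM vs NPM and 7 did not, beside 10.4% of all features that passed. This was ATF6, which rose by 1.06 ± 0.14 (limma adjusted p = 0.0128, a call that held in 3 of the 6 fits without 1 array). Its mean log2 intensity was 11.05 in NPC, 11.11 in NPM, 11.81 in HPC and 12.16 in HPM, and in HPC vs NPC it had 0.77 ± 0.17 (limma adjusted p = 0.111). EIF2AK3, which encodes PERK, had 0.15 ± 0.20 in HPC vs NPC and -0.0019 ± 0.15 in HPM vs NPM (limma adjusted p = 0.743 and 0.996).

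The 8 other genes of the PERK-ATF4 branch gave the larger hypoxia values. The lists were drawn up with earlier results of these data known, so the contrast between them is a description and was not tested. In HPC vs NPC 3 rose and 5 did not pass, with a median of 1.45, where 0.157% of all features passed. In HPM vs NPM 6 rose and 2 did not pass, with a median of 1.18, where 10.4% of all features passed. ATF3, a stress-induced transcription factor, rose by 1.97 ± 0.21 in HPC vs NPC, CHAC1, which degrades glutathione, by 1.76 ± 0.20 and DDIT4, an inhibitor of mTORC1 that hypoxia also induces, by 1.52 ± 0.17 (limma adjusted p = 0.0423 for each). By the methods' t-test after adjustment these 3 did not pass (0.0771 for ATF3, 0.0773 for CHAC1 and 0.0669 for DDIT4). In HPM vs NPM DDIT4 rose by 2.99 ± 0.17 (limma adjusted p = 0.00483), SESN2, a leucine sensor upstream of mTORC1, by 1.98 ± 0.22 (limma adjusted p = 0.00915), PPP1R15A, which restores translation by dephosphorylating eIF2alpha, by 1.79 ± 0.14 (limma adjusted p = 0.00648), ATF3 by 1.37 ± 0.17 (limma adjusted p = 0.0103), CHAC1 by 1.00 ± 0.19 (limma adjusted p = 0.0271) and ASNS, which makes asparagine, by 0.79 ± 0.17 (limma adjusted p = 0.0356). Leaving out 1 array kept the calls of DDIT4 and PPP1R15A in 6 of 6 fits, that of ATF3 in 5 and that of CHAC1 in 1. ATF4 itself had 0.65 ± 0.15 and 0.68 ± 0.21 in these comparisons (limma adjusted p = 0.114 and 0.0925).

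With TAMs under hypoxia CHAC1 fell, from 11.48, 11.63 and 11.37 on the HPC arrays to 10.12, 10.25 and 10.25 on the HPM arrays. Its log2 fold change was -1.29 ± 0.14 (limma adjusted p = 0.0362, and 0.0627 with the block), and the call was lost whichever array was left out. In those fits and with the block no feature of the table passed. The other 7 did not pass there, where 1.02% of all features did, and lay in both directions. PPP1R15A had 0.92 ± 0.17 (limma adjusted p = 0.0571) and DDIT4 0.58 ± 0.13 (limma adjusted p = 0.0836), both without overlap. None of the 8 passed in NPM vs NPC, against 0.0232% of all features. At an unadjusted p under 0.05 there were 3, against 13.7% of all features, and the methods' t-test gave 0.

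**Figure D5:**
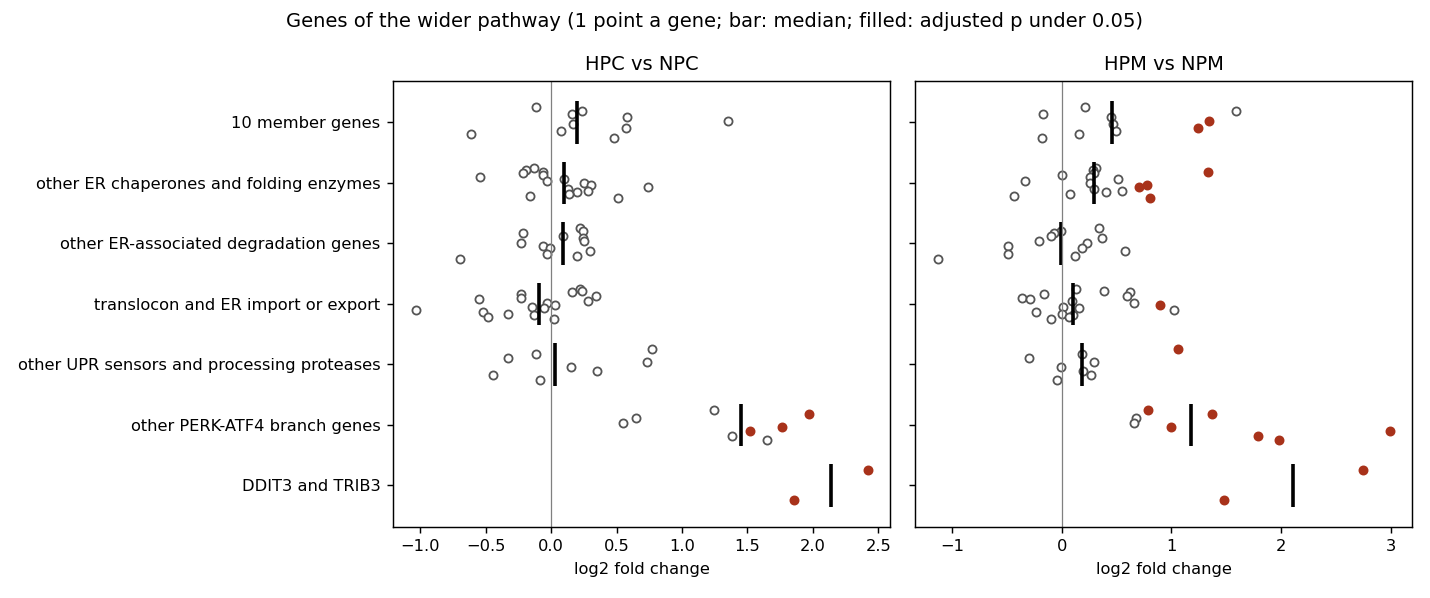
Log2 fold changes (horizontal axes) under hypoxia in single culture (HPC vs NPC, left) and in co-culture (HPM vs NPM, right) for the 10 ER genes and the lists around them, with a point for each gene, a bar for the median and filled points for a limma adjusted p under 0.05. The medians of the PERK-ATF4 branch (1.45 and 1.18) lie apart from those of the other chaperones (0.098 and 0.29). The lists were chosen with earlier results of these data known.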

How the data were processed

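Total RNA of PANC-1 cells was labelled with Cy3 and hybridized to 12 single-colour arrays. The deposited table holds intensities on a linear scale, which the authors obtained by scanning with GenePix Pro, quantile normalization and RMA in NimbleScan, with GeneSpring GX for later steps. No source used here says how its 34487 features were chosen. Precision is limited by the number of arrays. No measure of background was used, so dim values such as those of DNAJB9 may sit near it.

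Values were log2-transformed here and tested, two-sided and without a filter, with limma 3.58.1 (R 4.3.3, lmFit and eBayes) over the 6 arrays of each comparison, and over 12 for the interaction. p was adjusted by Benjamini-Hochberg over all features. The platform table named 14133 features, and RefSeq accessions named 542 more. TXNDC5, SEL1L and UBE2J1 had no named feature. Members and gene lists were chosen with earlier results of these data known. The genes named are the members, DDIT3, TRIB3, up to 4 genes of each other list with the smallest p under hypoxia or called in the interaction, and the 8 features most like HSPA5. ATF4, SESN2, ASNS and EIF2AK3 fell outside this rule and were named after their values were seen. Promoter sequences are from RefSeq, GRCh38.p14, and all 12 genes matched.

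Arrays of the same number, which the labels give, deviated together between NPC and NPM (residual correlations 0.34, 0.28 and 0.52) and between HPC and HPM (0.50, 0.27 and 0.54), above the limit of 0.1, so the numbers pair the samples there. The printed values are from fits without the block, which was an alternative. Alternatives were repeated quantile normalization, median centring, a filter that drops features below the 25th percentile of mean intensity, a single fit of all 12 arrays, the replicate block, the methods' t-test (Student's test with equal variances), eBayes with trend and robust settings and leaving out each array. Fits without the arrays numbered 3, and over 12 arrays with a block within an oxygen level, were added after seeing the data. The procedure was also run on simulated data with noise drawn independently for each array. That run therefore does not cover the shared deviation of arrays with the same number, and no result here rests on it. Figures were drawn with matplotlib 3.10.9.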

Additional observations from a re-analysis of the deposited data

Results flagged for a closer look

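Among the members, XBP1 moved in opposite directions with TAMs at the 2 oxygen levels, without overlap of the groups at either level. Its log2 fold change was 0.26 under normoxia and -0.40 under hypoxia, a difference of -0.66 ± 0.22 (SE, limma adjusted p = 0.253), which did not pass after adjustment. Of all features, 21.4% in NPM vs NPC and 27.7% in HPM vs HPC had groups that did not overlap, in either direction. The share with opposite directions at the 2 levels was not counted.

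The effect of TAMs differed between the oxygen levels for 2 genes of the wider pathway in the interaction fit without the replicate block, and for neither with it. These were 1 of 17 other chaperones and 1 of 8 other PERK-ATF4 genes, with 0 in the other pathway lists. Of all features 0.452% passed in that fit. For CRELD2 the effect of TAMs was 0.13 under normoxia and 1.52 under hypoxia, a difference of 1.39 ± 0.21 (limma adjusted p = 0.0290, and 0.0714 with the replicate block). For DDIT4 it was -0.89 under normoxia and 0.58 under hypoxia, with no overlap at either level, a difference of 1.47 ± 0.22 (limma adjusted p = 0.0290, and 0.0552 with the block). Each call held in only 1 of the 12 fits that left out an array.

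SEC63 also moved in opposite directions without overlap, -0.35 under normoxia and 0.51 under hypoxia, and its difference of 0.86 ± 0.22 did not pass (limma adjusted p = 0.151).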

How the results depend on the processing

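The count of ER genes that passed in HPC vs NPC was 0 and became 1, HERPUD1, with repeated quantile normalization, median centring, the filter on dim features or trend and robust settings, and 2, HSPA5 and HERPUD1, with all 12 arrays in a single fit. In HPM vs NPM the count of 2 became 4 with the filter, with all 12 arrays or by the methods' t-test, 5 with trend and robust settings and 0 without the arrays numbered 3 (HSPA5 adjusted p = 0.0785, HERPUD1 0.0866), and it ranged from 0 to 2 when an array was left out. In HPM vs HPC the count of 0 became 1, HSPA5, with repeated quantile normalization, the filter or all 12 arrays, and 3 with trend and robust settings or with 12 arrays blocked within an oxygen level (HSPA5, DNAJB9 and HERPUD1 in the latter). In NPM vs NPC and in the interaction it was 0 under every alternative run. What moved these counts was not tested.

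With the replicate block, the count of ER genes was 0 in HPC vs NPC and 3 in HPM vs NPM, where same-numbered arrays did not all deviate together (correlations 0.24, 0.025 and 0.38, and 0.38, 0.010 and 0.20), so that they share only a number. Not every array of these comparisons correlated best with its own number. In HPC vs NPC neither DDIT3 nor TRIB3 passed with the block (adjusted p = 0.158 for both), without the arrays numbered 3 (0.183) or without any 1 array, and in HPM vs NPM both failed only without the arrays numbered 3 (0.0739). No feature of the table passed in any of these fits. In the paired comparisons the block, fitted over the arrays of that comparison only, changed no call of a member, DDIT3 or TRIB3. Over all 12 arrays, the block within an oxygen level did change calls of members in HPM vs HPC. The limma adjusted p of DNAJB9 was 0.331 without that block and 0.0422 with it, and that of HERPUD1 was 0.0609 and 0.0493. HSPA5 and TRIB3 passed in both of these fits.

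Of all features, 54 passed in HPC vs NPC, and 136 did with repeated quantile normalization, 126 with median centring, 826 with the filter, 1452 with all 12 arrays, 1639 with trend and robust settings, 14 by the t-test, 0 with the block and 0 without any 1 array. In HPM vs NPM 3602 passed, and 5573 did with all 12 arrays, 5561 with trend and robust settings, 2291 by the t-test, 1854 with the block, 0 without the arrays numbered 3 and 191 to 1952 without 1 array. In NPM vs NPC 8 passed, and 335, 872, 940, 57 and 1 did with the filter, all 12 arrays, trend and robust settings, the t-test and the block, and 0 to 4 without 1 array. In HPM vs HPC 353 passed, and 1803, 1885, 2239, 231 and 0 did under these, and 0 without any 1 array. In the interaction 156 passed, and 311 did with the filter, 363 with trend and robust settings, 31 with the block, and 23 to 73 without 1 array. With 12 arrays blocked within an oxygen level 1147 passed in NPM vs NPC and 2892 in HPM vs HPC.

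No value that passed turned its sign. Among those that did not pass, several did. CALR in HPC vs NPC became 0.092 without the arrays numbered 3 and ranged from -0.29 to 0.058 without 1 array. CALR in NPM vs NPC became 0.013 with median centring and 0.10 without the arrays numbered 3, and ranged from -0.19 to 0.15. The interaction of ERN1 became 0.028 without the arrays numbered 3 and ranged from -0.25 to 0.077, and that of HERPUD1 from -0.12 to 0.12. Without 1 array DNAJB9 ranged from -0.10 to 0.58 in HPC vs NPC and from -0.77 to 0.050 in NPM vs NPC, PDIA4 from -0.012 to 0.10 in NPM vs NPC and EDEM1 from -0.26 to 0.060 in HPM vs HPC. With 3 arrays in each group, differences of the size seen for HSP90B1 or PDIA4 could pass or fail with the choice of fit.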
